A study of Arabidopsis thaliana with 4 samples.

Results

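Histone genes of Arabidopsis thaliana were followed through ribosome footprints, fragments of mRNA covered by ribosomes and so spared by nuclease digestion. Whole seedlings aged 6 days were compared between wild type (WT, 2 libraries) and line 5, WT plants that constitutively overexpress the chloroplast Clp ATPase ClpD (2 libraries). Per the design text, the ClpD precursor accumulates in these seedlings and genes regulated at transcription or at translation were sought; only the footprint libraries are analysed here. The histone genes are the rows of the deposited table for the nuclear chromosomes whose annotation reads "Histone superfamily protein" or names a histone H1 to H4, leaving out annotations that mention acetyl, methyl, kinase, chaperone or binding. They number 48 of the 27554 genes listed. The promoter of the transgene is not given in the sources used here. Line 5 is the sole overexpressing line, and what is peculiar to it cannot be told apart from overexpression. The labels do not state whether replicate libraries are independent cultures, so p-values measure only the spread between these libraries, which may be technical.

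Nucleosomes hold DNA around an octamer of the core histones H2A, H2B, H3 and H4, and the linker histone H1 binds where DNA enters and leaves. Canonical H2A, H2B, H4 and the H3.1 form are made mainly in S phase and deposited behind the replication fork, while H3.3 is made throughout the cell cycle and placed at transcribed genes. Plants also have the H2A variants H2A.Z, found at the start of genes, H2A.X, which is phosphorylated at DNA breaks, and H2A.W, which marks heterochromatin. In young seedlings histone synthesis follows dividing cells in meristems and young leaves.

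The label of the group held for most rows. By the deposited annotation or the RefSeq names, 12 of the 48 encode H2A, 4 H2B, 10 H3, 1 H4 and 1 the linker histone H1-3. For 17 rows, annotated only as histone superfamily, neither source gives the class, and they are treated as a group of their own. The remaining 3 are annotated as other proteins with the same annotation words: the embryo transcription factor subunit LEC1, the DNA repair protein MHF1 (AT5G50930) and AT3G07565, listed as an H2A deubiquitinase. In turn, GAMMA-H2AX, HTB2 and HTR11 are listed as histones with wording that the choice did not cover. Other such genes were not searched for. The set, with its H1 class of 1 gene, may therefore not hold every histone gene. GAMMA-H2AX had a log2 fold change of 0.14 (SE 0.139; edgeR, adjusted p = 0.520) and HTB2 one of -0.34 (SE 0.187; edgeR, adjusted p = 0.253), while HTR11 had too few counts for a test. Several copies of canonical histones are nearly identical, so short footprints may have been divided among them in a way that was not tested. Sums over a class remove that division only among the copies they hold. The members of unstated class and histone genes outside the choice, such as these 3, are not in them.

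Total counts ranged from 27260818 to 42291527 per library. ClpD, listed as ERD1 (AT5G51070), had 167 and 175 CPM in WT and 3112 and 3302 CPM in line 5, as the label says. CPM here are counts relative to the library total after TMM scaling, which assumes that most genes do not change. Without TMM, on the library totals alone, the median log2 fold change of all genes moved from 0.0023 to 0.24, so every small change below is relative to the other genes tested. The label "whole seedlings" was checked against marker genes. The 2 mesophyll markers (CAB1 and RBCS1A) summed to 28340 and 29925 CPM in WT and 22951 and 21661 CPM in line 5, and stomatal lineage markers to between 65.1 and 78.7 CPM. The root meristem gene PLT1 had 0 counts in all 4 libraries and PLT2 had 3 counts in a single library. The root quiescent centre gene WOX5 was counted in every library, 7 and 5 times in WT and 34 and 34 times in line 5. The 3 markers of differentiated root cells (EXPA7, COBL9, listed as SHV2, and CASP1) had 8 counts or fewer in every library. For differentiated root cells the markers therefore went against the label, and how much root the libraries hold is not known.

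Most histone genes were not called different between line 5 and WT. Of the 43 members with enough counts, 2 were called lower and 0 higher by edgeR's quasi-likelihood test with Benjamini-Hochberg adjustment over all 18737 genes tested. This is 4.65% of the members tested, against 15.4% of all genes (6.72% higher and 8.72% lower). At an unadjusted p under 0.05 edgeR had 1 member higher and 4 lower, against 17.1% of all genes higher and 18.7% lower at that threshold, and DESeq2 called 1 higher and 3 lower, against 20.7% of all genes called by DESeq2. In the authors' deposited table, 1 member was higher and 1 lower at an FDR below 0.05, against 12.7% of its genes (5.15% higher and 7.5% lower). The members' median log2 fold change was -0.23, against 0.0023 for all genes tested, with 38 members below 0 and 5 above. This rested on replicate 2 of line 5: without it the members' median was -0.02, with 21 above 0 and 22 below, and without replicate 1 of line 5 it was -0.50, with 1 above and 42 below. On library totals, which moved all genes by about the same amount, the members' median was 0.0096 against 0.24, with 23 above 0 and 20 below, so its sign depended on the scaling too. In 17 members both line 5 libraries lay below both WT libraries and in 1 both lay above, against 33.4% and 34.7% of all genes. The calls varied with the setting. On library totals 2 members were called against 24.4% of all genes, without replicate 1 of line 5 none (0.27% of all genes), without replicate 2 of line 5 none (0.149%), without WT replicate 1 5 (26.5%), without WT replicate 2 1 (17.4%) and at a minimum count of 50 1 (16.9%). With replicate number as a block 0 were called (3.97%), and with the numbers crossed 3 (19.2%). A footprint count depends on the amount of mRNA as well as on its translation, which were not separated here, and in seedlings fewer cells of a type and less RNA per cell cannot be told apart.

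**Figure D1:**
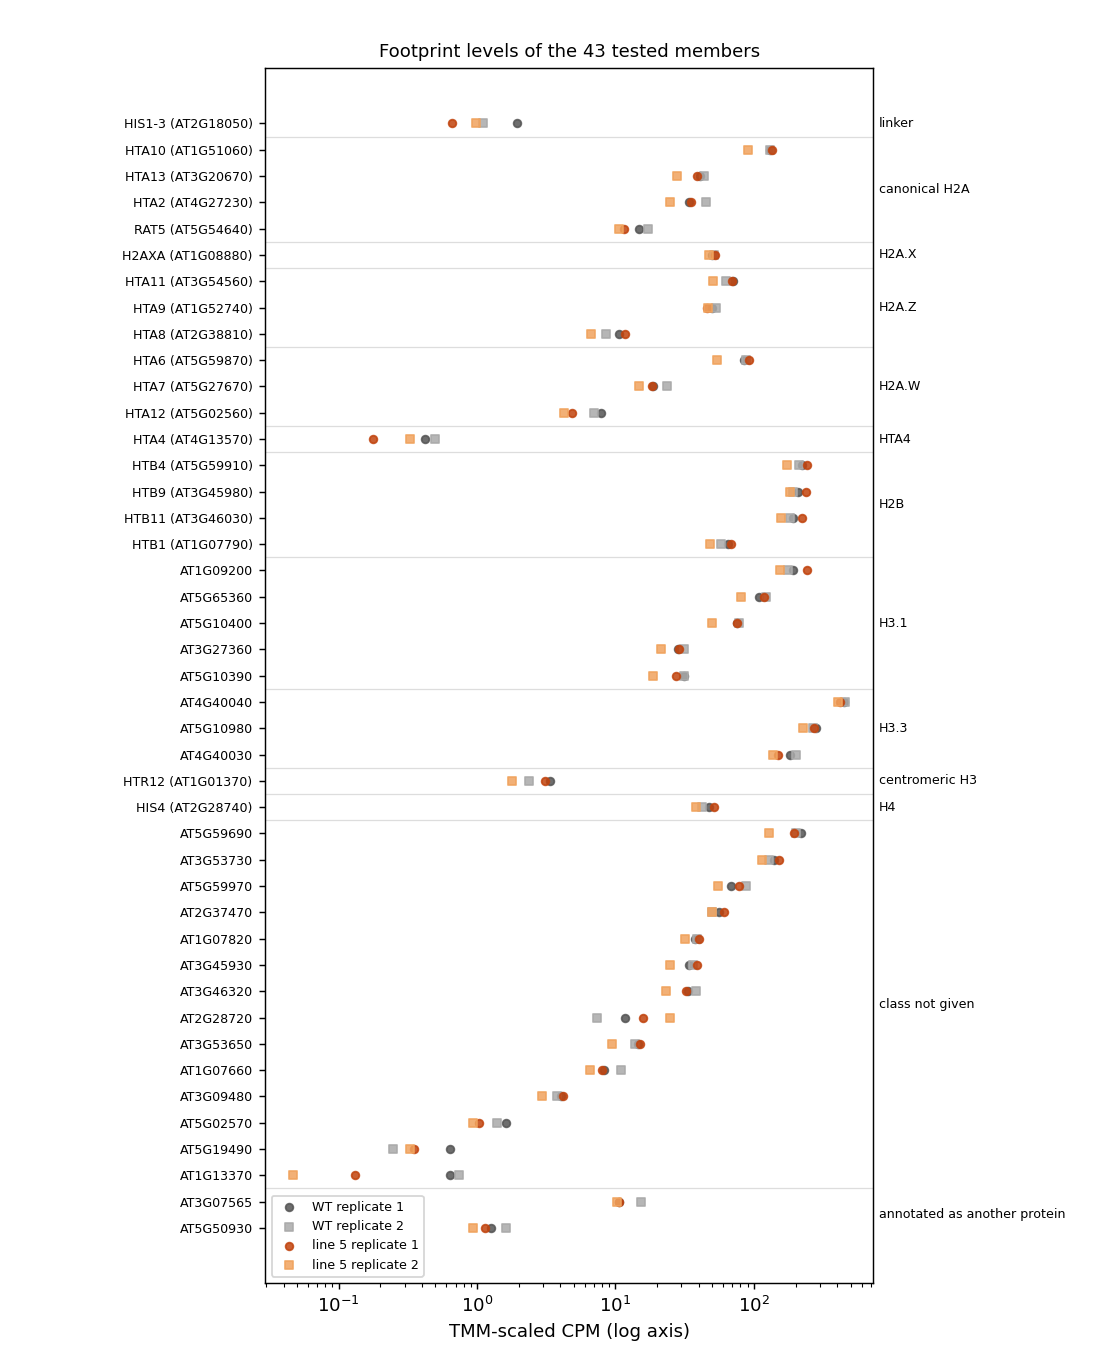
TMM-scaled CPM on a log axis of the 43 tested members in each of the 4 libraries, grouped by class, with grey for WT and orange for line 5. Replicate 2 of line 5 (light orange squares) is the lowest library for most H2A, H2B and H3 genes, while AT2G28720 runs from 7.35 CPM in WT replicate 2 to 24.7 CPM in line 5 replicate 2.

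**Figure D2:**
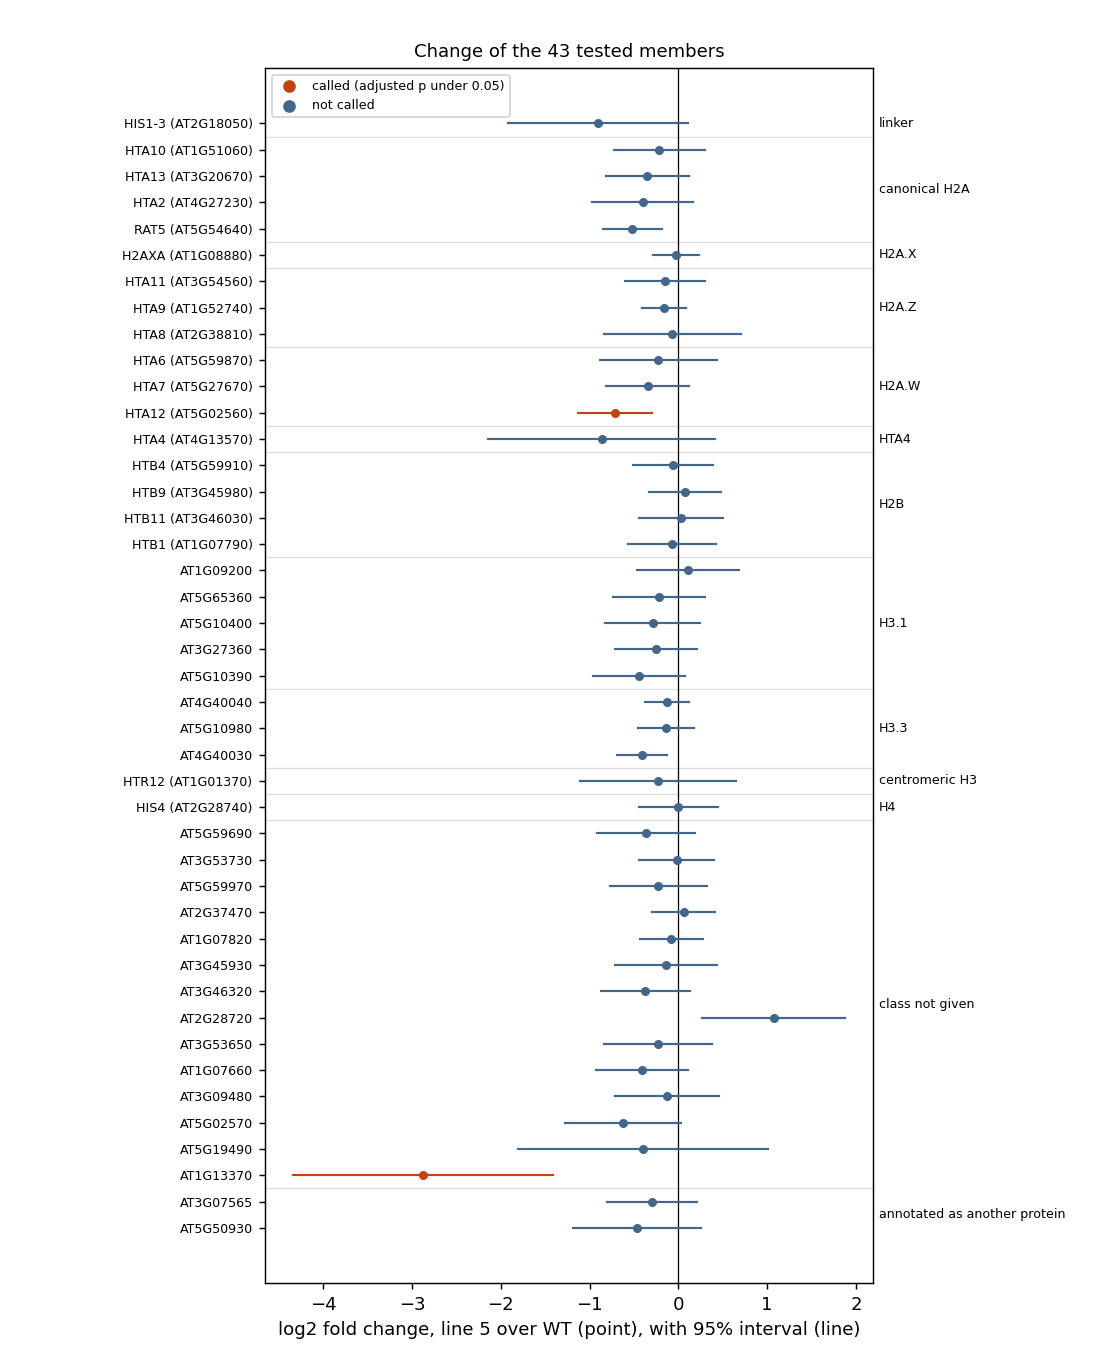
Log2 fold change of line 5 over WT for the same 43 members, with the 95% interval of edgeR's fit as a line. HTA12 (-0.71) and AT1G13370 (-2.88) are the called members, and most intervals of the others cross 0.

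The H3 genes carried the highest footprint levels, and none of the 9 tested was called by edgeR, against 15.4% of all genes. AT4G40030 alone was lower at an unadjusted p under 0.05, against 18.7% of all genes lower. It was also the sole H3 gene called by DESeq2, against 20.7% of all genes. The replication-independent H3.3 gene AT4G40040 had the highest level per length of all members, with an authors' FPKM of 959 and 919 in WT and 1011 and 1011 in line 5. Its scaled levels were 446 and 458 CPM in WT and 417 and 408 CPM in line 5, a log2 fold change of -0.13 (95% interval -0.38 to 0.12; edgeR, adjusted p = 0.377). The line 5 libraries were both below WT after scaling and both above in FPKM, which follows library totals. The second H3.3 gene, AT5G10980, came next per length on average at 600 and 540 FPKM in WT and 655 and 564 FPKM in line 5, within the spread of AT5G59690 in WT (604 and 518 FPKM), and its log2 fold change was -0.14 (SE 0.123; edgeR, adjusted p = 0.452). The third, AT4G40030, which lies next to AT4G40040 on its chromosome, had 181 and 201 CPM in WT and 149 and 137 CPM in line 5. Its groups did not overlap, and the log2 fold change of -0.41 (SE 0.111) missed the threshold with edgeR (adjusted p = 0.0643) and passed it with DESeq2 (adjusted p = 0.0465).

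The 5 H3.1 genes, the replication-coupled form, spanned a wide range of levels. AT1G09200 was the highest per length, with 413 and 355 FPKM in WT and 587 and 384 FPKM in line 5, and AT5G10390 and AT3G27360 were the lowest, at 65.2 and 61.9 FPKM on average in WT. These neighbours in the order did not differ beyond their spread, with WT libraries of 67.7 and 62.7 FPKM for AT5G10390 and 60.6 and 63.1 FPKM for AT3G27360. AT1G09200 had 192 and 177 CPM in WT and 242 and 155 CPM in line 5, so that the line 5 libraries lay on either side of WT. Its log2 fold change was 0.10 (95% interval -0.47 to 0.68; edgeR, adjusted p = 0.762), and -0.25 without replicate 1 of line 5. AT5G10390 had 31.5 and 31.2 CPM in WT and 27.5 and 18.6 CPM in line 5, a log2 fold change of -0.44 (SE 0.203; edgeR, adjusted p = 0.186). The others, AT5G65360, AT5G10400 and AT3G27360, were uncalled, at log2 fold changes of -0.22, -0.29 and -0.25. Summed over the 5 genes, H3.1 footprints were 437 and 439 CPM in WT and 492 and 325 CPM in line 5. The summed H3.3 footprints were 906 and 928 CPM in WT and 836 and 773 CPM in line 5. After this scaling the H3.1 sums overlapped between genotypes and the H3.3 sums did not. In the authors' FPKM the H3.3 sums overlapped as well, at 1948 and 1861 in WT and 2028 and 1915 in line 5.

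The 2 specialised H3 genes were low. HTR12, the centromeric H3 that replaces the usual form where the kinetochore assembles, was counted 95 and 58 times in WT and 141 and 77 times in line 5, with overlapping groups in CPM (log2 fold change -0.23, SE 0.342; edgeR, adjusted p = 0.655). MGH3, the H3 of male gametes, had 0 counts in both WT libraries and in replicate 1 of line 5 and 2 counts in replicate 2 of line 5, below the 3 counts that a count of 0 allows, which correspond to between 0.0709 and 0.110 CPM on the library totals. Floors and intervals on counts cover counting error only.

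All 12 H2A genes were tested, and 1 was called lower and 0 higher by edgeR, against 8.72% and 6.72% of all genes. At an unadjusted p under 0.05, 0 were higher and 2 lower, against 17.1% and 18.7% of all genes. DESeq2 called 0 higher and 1 lower, against 20.7% of all genes called by DESeq2. The called gene was HTA12 (AT5G02560), an H2A.W gene. Its counts were 222 and 170 (WT) and 220 and 181 (line 5), or 7.83 and 7.02 CPM in WT and 4.84 and 4.23 CPM in line 5. The groups did not overlap, and the log2 fold change was -0.71 (SE 0.163, 95% interval -1.13 to -0.29; edgeR, adjusted p = 0.0476). On library totals it was -0.48 and not called (edgeR, adjusted p = 0.105), and the call was also lost without WT replicate 1 and without either line 5 library (edgeR, adjusted p between 0.0583 and 0.298 in these fits). The edgeR call was lost too with replicate number as a block (adjusted p = 0.0887) and with the numbers crossed (adjusted p = 0.0566). The authors' deposited table gives HTA12 a log2 fold change of -0.47 with an FDR of 0.0539. HTA12 overlaps the next gene, AT5G02570, a member of unstated class with a log2 fold change of -0.62 (SE 0.256; edgeR, adjusted p = 0.154). Whether counting used strand is not given, so reads of the pair cannot be told apart. The same may hold for HTA9, HTA13, HTA4, HTB9, AT3G27360, AT3G07565 and AT5G19490, which overlap genes that are not members. The other H2A.W genes were higher in level and not called. HTA6 had 84.7 and 87.1 CPM in WT and 92.6 and 54.3 CPM in line 5 (log2 fold change -0.23, SE 0.258; edgeR, adjusted p = 0.562). HTA7 had 18.6 and 23.7 CPM in WT and 18.4 and 14.8 CPM in line 5 (log2 fold change -0.35, SE 0.181; edgeR, adjusted p = 0.231).

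Among the canonical H2A genes, HTA10 had the highest footprint level of all H2A genes per length, with 288 and 270 FPKM in WT and 336 and 231 FPKM in line 5. In CPM it had 131 and 131 in WT and 135 and 90.7 in line 5, a log2 fold change of -0.21 (95% interval -0.73 to 0.30; edgeR, adjusted p = 0.484). RAT5 (HTA1), named for the resistance of its mutant to Agrobacterium transformation, had 14.7 and 17.0 CPM in WT and 11.5 and 10.7 CPM in line 5. Its groups did not overlap and its log2 fold change of -0.52 (SE 0.131) missed the threshold (edgeR, adjusted p = 0.0579; DESeq2, adjusted p = 0.0576). HTA13 and HTA2 had -0.35 and -0.40 and were not called. The H2A.Z genes HTA11, HTA9 and HTA8 had log2 fold changes of -0.15, -0.16 and -0.07, none called. HTA9 varied little between libraries, at 50.3 and 53.5 CPM in WT and 46.1 and 46.6 CPM in line 5, and its 95% interval of -0.41 to 0.09 was among the narrower ones. H2AXA, the H2A.X gene among the members, had 50.2 and 51.5 CPM in WT and 52.1 and 47.6 CPM in line 5 (log2 fold change -0.03, 95% interval -0.29 to 0.23). HTA4 was the lowest H2A gene, with 12 counts in each WT library against 8 and 14 for line 5 (log2 fold change -0.86, SE 0.500; edgeR, adjusted p = 0.274).

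None of the 4 H2B genes was called by edgeR or by DESeq2, against 15.4% and 20.7% of all genes. None had an unadjusted p under 0.05, against 17.1% of all genes higher and 18.7% lower. HTB4, the highest per length on average over the 4 libraries and in WT but below HTB9 in replicate 2 of line 5, had 222 and 211 CPM in WT and 240 and 173 CPM in line 5, so that the line 5 libraries lay on either side of WT (log2 fold change -0.07, 95% interval -0.52 to 0.38; edgeR, adjusted p = 0.811). HTB9 had 207 and 192 CPM in WT and 238 and 181 CPM in line 5 (log2 fold change 0.07, SE 0.158; edgeR, adjusted p = 0.776). HTB11 and HTB1 had log2 fold changes of 0.03 and -0.07. The H4 gene HIS4 had 47.1 and 42.4 CPM in WT and 51.4 and 38.0 CPM in line 5, again on either side (log2 fold change -0.0009, 95% interval -0.44 to 0.44). HIS1-3, the linker histone H1-3, which is known to be induced by drought and abscisic acid, was low and variable, with 55 and 27 counts (WT) and 30 and 42 (line 5). Its levels were 1.94 and 1.11 CPM in WT and 0.660 and 0.981 CPM in line 5, and its log2 fold change of -0.91 (SE 0.395; edgeR, adjusted p = 0.170) was -0.44 without WT replicate 1.

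Of the 17 members of unstated class, 14 were tested, 1 was called lower and 0 higher by edgeR, against 8.72% and 6.72% of all genes. At an unadjusted p under 0.05, 1 was higher and 1 lower, against 17.1% and 18.7% of all genes. DESeq2 called 1 higher and 1 lower, against 20.7% of all genes called by DESeq2. The called gene, AT1G13370, was counted 18 times in each WT library and 6 and 2 times in the line 5 libraries. Over the summed libraries WT exceeded line 5 by a ratio of 7.55 (95% counting interval 3.45 to 18.8; edgeR, adjusted p = 0.0368). The ratio was 14.7 without replicate 1 of line 5 and 5.18 without replicate 2, and edgeR did not call the gene without either line 5 library or without WT replicate 2 (adjusted p between 0.0669 and 0.245). AT1G13370 ranked 42nd of the 48 members by mean FPKM, at 1.43 FPKM on average in WT, so its change adds little to the histone footprints as a whole. AT2G28720 was the member with the highest log2 fold change among those tested. It had 11.8 and 7.35 CPM in WT and 15.7 and 24.7 CPM in line 5, without overlap. Its log2 fold change of 1.07 (SE 0.316) missed the threshold with edgeR (adjusted p = 0.0786), passed it with DESeq2 (adjusted p = 0.0113), and fell to 0.71 without replicate 2 of line 5. The authors' deposited table gives it a log2 fold change of 1.31 with an FDR of 0.0117. AT2G28720 was also the member with the lowest ratio of replicate 1 to replicate 2 within line 5, a log2 ratio of -0.65. AT5G59690, the highest of these genes per length, had 218 and 200 CPM in WT and 196 and 129 CPM in line 5 (log2 fold change -0.37, SE 0.215; edgeR, adjusted p = 0.279).

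The 5 members without enough counts for a test were MGH3, LEC1, AT1G75600, AT1G08170 and AT5G12910. AT1G08170 and AT5G12910 had 0 counts in all 4 libraries, and LEC1 had 1 count in replicate 1 of line 5. AT1G75600 was counted 1 and 0 times (WT) and 3 and 11 times (line 5), a ratio of line 5 to WT of 8.34 with a wide counting interval of 1.27 to 353, which was 3.47 (0.279 to 182) without replicate 2 of line 5. The tested members annotated as other proteins, AT3G07565 and MHF1, were uncalled, at log2 fold changes of -0.30 (SE 0.197) and -0.46 (SE 0.281).

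Histone footprints differed more between the 2 line 5 libraries than between the WT libraries. Summed over all 48 members they came to 3236 and 3223 CPM in WT and to 3325 and 2562 CPM in replicates 1 and 2 of line 5. The SD over 2 libraries was 9.19 CPM around a WT mean of 3230 CPM, and 539 CPM around a line 5 mean of 2943 CPM, so the groups overlapped. Of the 43 tested members, 39 were higher in replicate 1 than in replicate 2 of line 5 (90.7%), against 50.1% of all genes tested, with a median log2 ratio of 0.45 against 0.0007. Within WT 21 members were higher in replicate 1 and 22 in replicate 2, with a median of -0.0049. The spread within line 5 was not the same in all classes. The median log2 ratio of replicate 1 to replicate 2 was 0.56 for the 5 H3.1 genes, 0.49 for the 4 H2B genes, 0.49 for the 4 canonical H2A genes, 0.45 for the 3 H2A.Z genes, 0.43 for the H4 gene, 0.31 for the 3 H2A.W genes, 0.13 for H2AXA and 0.12 for the 3 H3.3 genes. The H2A.Z gene HTA8 had the highest ratio of the members, 0.81, followed by the H2A.W gene HTA6 with 0.77. Without replicate 1 of line 5, the log2 ratio to WT was -0.46 for the H2A sum, -0.25 for H2B and -0.30 for H3. It was -0.24 for H4, which is HIS4 alone, and -0.40 for the members of unstated class. With replicate 2 left out the ratios were -0.02, 0.22, -0.03, 0.20 and 0.04, against -0.22, 0.0034, -0.16, -0.0008 and -0.16 with all libraries.

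**Figure D3:**
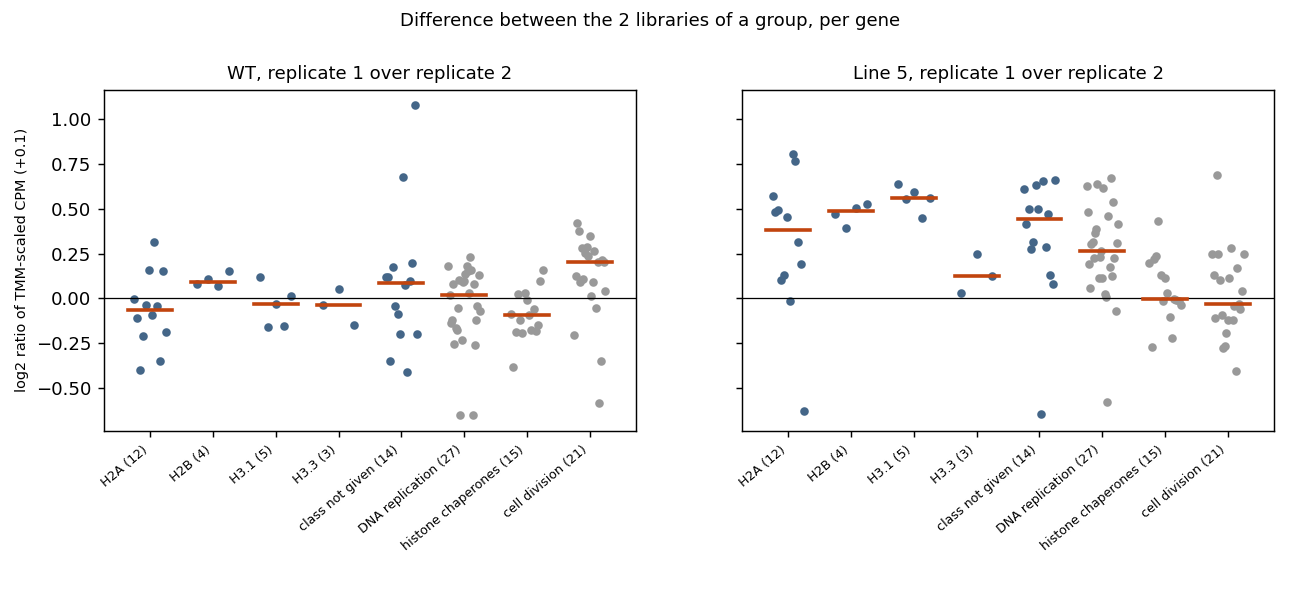
Log2 ratio of replicate 1 over replicate 2 for each tested gene within WT (left) and line 5 (right), with 0.1 CPM added and the median as a red bar; the number of genes stands beside each group. Within line 5 the H3.1 genes centre on 0.56 and the H3.3 genes on 0.12. Of the other lists within line 5, DNA replication genes centre on 0.26, while histone chaperones and cell division genes centre near 0. Within WT the cell division genes centre on 0.20, with 17 of 21 higher in replicate 1.

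Marker genes of other cell types were read in the same libraries. The 3 seed storage markers (CRA1, CRU3 and OLEO1) summed to 21.5 and 23.9 CPM in WT, 8.58 CPM in replicate 1 of line 5 and 1.68 CPM in replicate 2. The 7 meristem markers summed to 13.0 and 9.49 CPM in WT and 9.66 and 8.62 CPM in line 5, with WUS and PLT1 at 0 in all libraries. WOX5, of the root quiescent centre, was called higher within that list, from 7 and 5 counts to 34 and 34 (log2 fold change 1.74, SE 0.387; edgeR, adjusted p = 0.0446). The authors' deposited table gives WOX5 an FDR of 0.146. STM and KNAT1 of the same list went the other way and were not called, at log2 fold changes of -0.19 (SE 0.246) and -0.49 (SE 0.228). CAB1 had a log2 fold change of -0.50 (SE 0.132; edgeR, adjusted p = 0.0628). The part of these cell types in the histone values was not tested.

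The share of variants was compared within each library from the authors' FPKM, which does not depend on scaling between libraries. H3.3 made up 67.5% and 67.9% of the summed H3.1 and H3.3 FPKM in WT and 63.0% and 70.4% in line 5, on either side of WT (67.7% ± 0.302 and 66.7% ± 5.24; SD, n = 2). Within H3.1, AT1G09200 held 44.0% and 40.3% in WT and 49.2% and 47.7% in line 5, without overlap. The shares of AT5G10390, AT5G10400 and AT5G65360 were lower in line 5, also without overlap, and that of AT3G27360 overlapped. Within H3.3, AT4G40030 held 20.0% and 21.6% in WT and 17.9% and 17.7% in line 5, also without overlap. AT4G40040 held 49.2% and 49.3% in WT and 49.9% and 52.8% in line 5, without overlap, and AT5G10980 overlapped. How short footprints were divided among nearly identical copies was not tested. Of the FPKM of 11 H2A genes (all but HTA4), the 4 canonical genes held 44.6% and 46.3% in WT and 44.4% and 42.2% in line 5, without overlap. H2AXA, without the other H2A.X gene GAMMA-H2AX, held 9.50% and 9.39% in WT and 9.81% and 12.2% in line 5, also apart. H2A.Z and H2A.W shares overlapped between the groups, at between 23.9% and 27.8% and between 17.8% and 20.7%. With 2 libraries a group, a two-sided exact permutation test of such a share cannot go below p = 0.333.

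**Figure D4:**
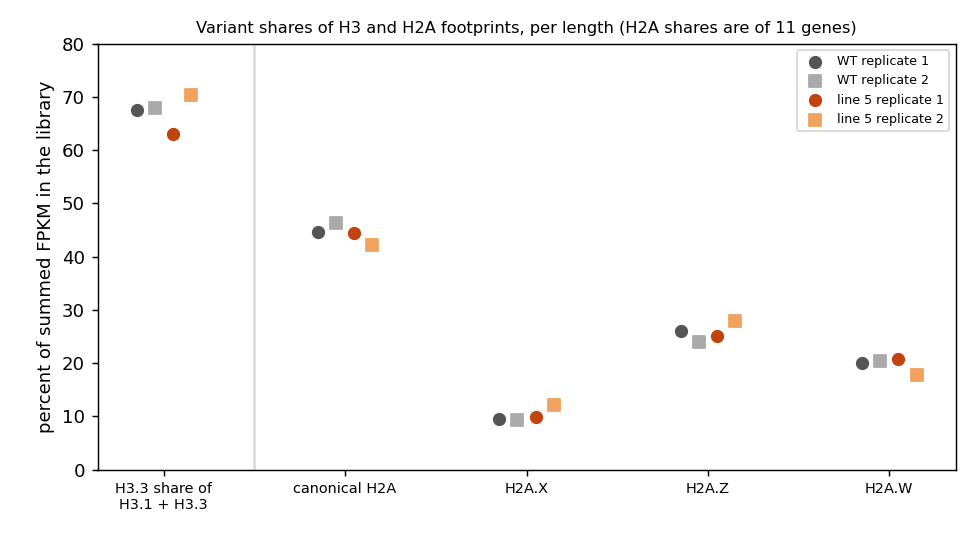
Share of H3.3 in the summed FPKM of H3.1 and H3.3, and shares of the H2A forms in the summed FPKM of 11 H2A genes, in percent, as 1 point per library. The H3.3 share of the line 5 libraries (63.0% and 70.4%) lies on either side of the WT values (67.5% and 67.9%).

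Genes that work with histones were read from 3 lists. Histone chaperones, which carry new histones to DNA, had 0 of 15 called by edgeR and 0 by DESeq2, against 15.4% and 20.7% of all genes. At an unadjusted p under 0.05, 2 were higher and 2 lower (against 17.1% and 18.7% of all genes). The median log2 fold change of the list was -0.01. The nucleosome assembly protein gene NAP1;3 had 37.7 and 39.3 CPM in WT and 46.7 and 54.4 CPM in line 5 (log2 fold change 0.39, SE 0.118; edgeR, adjusted p = 0.0830). FAS1 and FAS2, the large subunits of the chromatin assembly factor that deposits H3.1, did not pass, at log2 fold changes of -0.41 and -0.65 (edgeR, adjusted p = 0.0922 and 0.117). MSI1, also in the list, had 0.08 (SE 0.134; edgeR, adjusted p = 0.701), with overlapping groups. On library totals, NAP1;3 and its relative NRP2 were called higher by edgeR, with 0.63 and 0.54, where 24.4% of all genes were called.

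DNA replication genes had 5 of 27 called lower and 0 higher by edgeR (18.5%, against 15.4% of all genes), and 11 lower at an unadjusted p under 0.05, against 18.7% of all genes lower. The median log2 fold change of the list was -0.41. DESeq2 called 8 lower and 0 higher, against 20.7% of all genes called by DESeq2. MCM2 and MCM3, subunits of the replicative helicase, fell by 0.68 (SE 0.124; edgeR, adjusted p = 0.0320) and 0.61 (SE 0.108; edgeR, adjusted p = 0.0296) on the log2 scale. MCM2 went from 32.8 and 36.1 CPM to 23.0 and 20.1 CPM. The origin licensing factor CDT1A fell by 0.63 and the dUTPase gene DUT1, which keeps uracil out of DNA, by 0.73. On library totals the median of the list was -0.18 and 0 were called, and 0 were called without either line 5 library, where 51 and 28 of all genes were called. Within line 5, 25 of the 27 genes were higher in replicate 1 than in replicate 2, with a median log2 ratio of 0.26.

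Cell division genes had 3 of 21 called lower and 0 higher by edgeR (14.3%, against 15.4% of all genes), with a median log2 fold change of -0.06. At an unadjusted p under 0.05, 1 was higher and 4 were lower (against 17.1% and 18.7% of all genes). DESeq2 called 3 of the list lower and 0 higher, against 20.7% of all genes called by DESeq2. RBR1, the retinoblastoma-related repressor of S phase entry, fell by 0.92 (SE 0.122; edgeR, adjusted p = 0.0211), from 78.4 and 76.2 CPM to 44.2 and 37.2 CPM. The cyclin genes CYCD3;2 and CYCA3;2 fell by 0.79 and 0.85. DPA, a partner of E2F factors, had 0.42 (SE 0.141; edgeR, adjusted p = 0.102). On library totals DPA was called higher by edgeR (0.66) and 2 of the list were called lower, where 24.4% of all genes were called. Without either line 5 library 0 of the list were called.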

How the data were processed

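Ribo-seq counts were deposited by the authors as 1 table, per the file headers: whole-number counts and FPKM for each library, then mean FPKM and the authors' log2 fold change with its p-value and FDR. Per the submitters' processing notes, fastp, Bowtie2, STAR, RSEM and DESeq2 were used with build TAIR10; neither versions nor roles are given, nor how reads matching several copies were treated. Per the labels' protocols, lysates with cycloheximide were digested with RNase I. The authors' FPKM were used to compare levels between genes and for shares of variants within a library; no test was run on them.

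Genes were tested with edgeR 4.0.16 in R 4.3.3: filterByExpr with a minimum count of 10, TMM, and a quasi-likelihood fit with group as the sole term; p-values are two-sided, adjusted by Benjamini-Hochberg over 18737 genes, with a threshold of 0.05. The standard error is the log2 fold change divided by the square root of F, and the 95% interval uses the fit's degrees of freedom. DESeq2 1.42.0 was an alternative. TMM factors were 0.953 and 0.889 in WT and 1.07 and 1.10 in line 5. The 5 rows without an identifier (0.0145% to 0.0340% of counts) were left out. Names came from the deposited table and RefSeq (TAIR10.1; 48 of 48 members matched); since the build differs in name, no coordinates are given.

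The members and lists were chosen with earlier results of these data known. In each class the rule named the members highest in CPM and FPKM, up to 6 called and the 2 uncalled with the smallest p, and in each list the 4 with the smallest p; further genes were added for completeness after their values were seen.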

Additional observations from a re-analysis of the deposited data

How the results depend on the processing

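Members under about 50 counts rest on few reads. With all 4 libraries the share of counts on the 48 members was higher in line 5 by 0.022 percentage points, and from -0.016 to 0.060 with a library left out. Across fits that left out a library, from 28 to 5101 genes were called in all, from 0 to 5 members, from 0 to 8 replication genes and from 0 to 3 cell division genes.

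The replicate numbers are not said to pair libraries, and the deviations of same-numbered libraries correlated at -0.117. With the replicate block 743 genes were called, 0 members, 0 replication genes and 1 cell division gene. With the numbers crossed, an alternative added after that correlation was seen, 3597 genes, 3 members and 8 replication genes were called. DESeq2 called 4 members and 8 replication genes, and a minimum count of 50 left 1 member called. On library totals, added after the data were seen, 4581 genes were called (3355 higher and 1226 lower, against 1260 and 1633 with TMM), with 2 members (AT1G13370 lower and AT2G28720 higher), 0 replication genes and 2 histone chaperones. The log2 ratios of the summed classes were then 0.01 for H2A, 0.08 for H3, 0.23 for H4 (HIS4 alone) and 0.07 for members of unstated class. The 4 H2B genes then had a median log2 fold change of 0.22, all above 0, and HIS1-3, the sole H1 member, one of -0.68. With TMM and a library left out, the log2 ratios of the sums ranged from -1.24 to -0.44 for H1 and from -0.46 to -0.02 for H2A. With TMM they ranged from -0.25 to 0.22 for H2B and from -0.30 to -0.03 for H3. For H4 they ranged from -0.24 to 0.20 and for members of unstated class from -0.40 to 0.04, also with TMM. Summing copies with identical proteins was not run.

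Signs turned only for uncalled members, whose log2 fold changes with all libraries and TMM lay between -0.40 (AT5G19490) and 0.10 (AT1G09200). On library totals, by the scaling itself, the log2 fold change was 0.15 for AT1G07820, 0.11 for AT3G09480, 0.09 for AT3G45930, 0.0050 for AT3G53650, 0.21 for AT3G53730, 0.11 for AT4G40040, 0.10 for AT5G10980, 0.02 for AT5G59970, 0.02 for AT5G65360, 0.21 for H2AXA, 0.23 for HIS4, 0.02 for HTA10, 0.08 for HTA11, 0.0096 for HTA6, 0.16 for HTA8, 0.08 for HTA9, 0.16 for HTB1 and 0.17 for HTB4. With no filter HIS4 had 0.01; the cause was not tested. With a library left out, members whose sign turned ranged over their 4 fits from -0.25 to 0.07 (AT1G07820), -0.39 to 0.10 (AT3G09480), -0.50 to 0.14 (AT3G45930), -0.60 to 0.07 (AT3G53650), -0.24 to 0.18 (AT3G53730), -0.89 to 0.45 (AT5G19490), -0.50 to 0.0069 (AT5G59970), -0.52 to 0.04 (AT5G65360), -0.25 to 0.39 (AT1G09200), -0.09 to 0.19 (AT2G37470), -0.09 to 0.04 (H2AXA), -0.23 to 0.20 (HIS4), -0.53 to 0.05 (HTA10), -0.40 to 0.06 (HTA11), -0.66 to 0.11 (HTA6), -0.53 to 0.29 (HTA8), -0.36 to 0.17 (HTB1), -0.24 to 0.27 (HTB11), -0.32 to 0.15 (HTB4), -0.14 to 0.26 (HTB9) and -0.68 to 0.11 (HTR12).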
